A study of Mus musculus with 4 samples.

Results

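The Agilent mouse array used in this study names a large share of its probes not by a gene but by a stretch of chromosome, such as a start and an end on chromosome 2, followed by the letter F or R. These are its probes for long intergenic noncoding RNAs (lincRNAs). Ranges were taken here if the end minus the start was an exact multiple of 25 bases. The rule uses the name alone and no signal. It selected 1027 of the 3540 lincRNA ranges (29.0%) and, with them, 7268 of the 16181 lincRNA probes (44.9%), out of 55681 probes other than controls on the array. A further 13 probes are named by a range with no letter and were not used.

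The hearts were from male mice, C57BL/6J by the study's methods, and had undergone either sham surgery or transverse aortic constriction (TAC), a banding of the aorta that loads the left ventricle with pressure. Tissue was taken at 2 weeks, when the labels give an age of 10 weeks, and at 8 weeks, when they give an age of 16 weeks. The study's methods give a different age at surgery than these labels imply. The question put to the arrays was which intergenic regions gave more RNA after TAC than after sham. Each condition is 1 array of RNA pooled from several mice, so the spread between mice was not measured, no p-value can be given, and every change below is the ratio of 2 pools. Less RNA per cell and fewer cells of a type cannot be told apart in whole heart.

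lincRNAs are transcribed from between the protein-coding genes, are often spliced and polyadenylated, and are in general less abundant and more restricted to single tissues than messenger RNAs. Many were first catalogued from chromatin: a promoter mark, trimethylated lysine 4 of histone H3, followed by a mark of transcribed gene bodies, trimethylated lysine 36, outlines a transcription unit even when no transcript model exists. Such maps are drawn in fixed windows and give no strand. The files do not say how the ranges on this array were drawn, nor what F and R stand for, and they hold no chromatin data, so the ranges are described here only by their arithmetic. All coordinates are those of mm9, the build given in the file headers. Probe positions within a range and probe sequences were not used here.

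The multiples of 25 stood apart from every other length. Each of the other remainders after division by 25 held between 92 and 125 ranges, with a median of 102, against 1027 for remainder 0. The start itself was a multiple of 25 in 382 of the 1027 (37.2%), compared with 127 of the 2513 other lincRNA ranges (5.05%). They were also longer. Their end minus start ran from 225 to 538250 bases with a median of 17800, and the median of the other ranges was 2715 bases. Probes of both letters were present for 728 of the 1027 (70.9%), with F alone for 158 and R alone for 141, whereas 13.5% of the other ranges had both. The rule does not separate ranges drawn on a fixed grid from those that have such a length by accident.

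**Figure D1:**
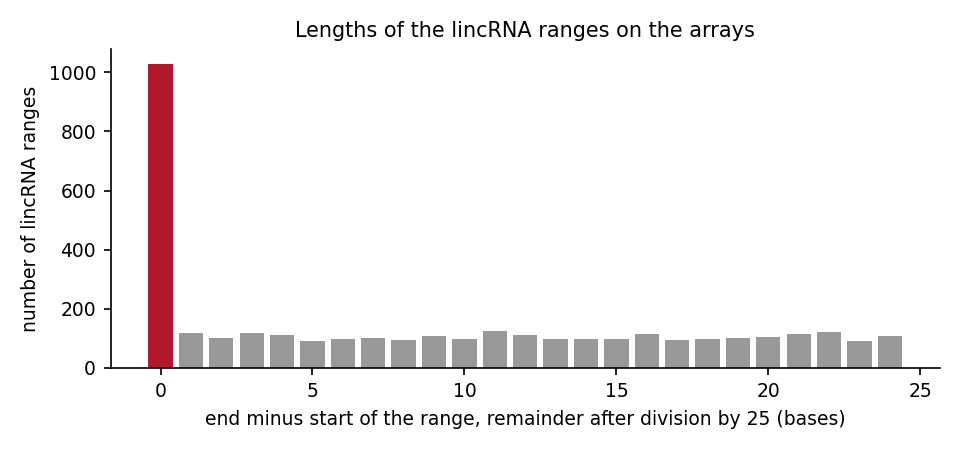
Number of lincRNA ranges on the array (vertical axis) by the remainder of end minus start after division by 25 bases (horizontal axis). The bar at remainder 0 holds 1027 ranges and each of the other bars between 92 and 125.

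A range and a letter together are called a range strand below. There were 1755 of them, 886 F with 3695 probes and 869 R with 3573 probes. The usual number of probes was 5, in 671 range strands, 262 had a single probe, and 1493 had at least 2. Each probe had 1 spot on the array, so the probes of a range strand are the only repeated reading of it. They share the RNA pool, and 82 of the ranges overlap another of the 1027.

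Signals are given as a percentage of the array's 75th percentile over all probes, which lay between 206 and 248 on the 4 arrays, and changes as log2 of TAC over sham on that scale. The heart and the loading were visible in genes outside the ranges. All 5 cardiac muscle genes examined (Myh6, Tnnt2, Actc1, Ryr2, Pln) were well above background on all 4 arrays, and all 5 genes known to rise under pressure overload (Nppa, Nppb, Myh7, Acta1, Ankrd1) were over 2-fold higher after TAC at both times. Of the 5 fibroblast genes, 0 were called up at 2 weeks and 1, Col1a1, at 8 weeks. Their median log2 changes were 0.90 and 0.75, with the 3 collagen genes between 0.75 and 1.20 and Dcn and Pdgfra between 0.18 and 0.40. The 3 macrophage genes with a probe had medians of 0.44 and 0.31 and the 4 endothelial genes 0.25 and -0.003, with 0 called. Of the 3 atrial genes, 2 were called down at 8 weeks, and their summed signal was 3.21 and 3.23 times the 75th percentile on the sham and TAC arrays at 2 weeks and 4.14 and 2.76 times at 8 weeks. The part of these cells in the changes of any range was not tested.

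Most of the probes gave little signal in heart. Between 38.4% and 43.1% of the 7268 probes were well above background on an array, 2592 (35.7%) on all 4, called detected below, and 3785 (52.1%) on none. The other lincRNA probes were alike, with 35.2% on all 4, and 59.6% of the probes outside the lincRNA set were. Detection depended little on length, from 33.0% of probes on all 4 arrays in the 257 shortest ranges to 38.2% in the 257 longest. It was 34.0% for F and 37.4% for R. Among the probes detected on all 4 arrays, 43.4% had a mean signal under 25% of the 75th percentile, where 20.3% of the detected probes outside the lincRNA set lay.

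If F and R stand for the strands of the chromosome, a transcript on 1 strand would be read by 1 letter. A range strand was counted as measured if most of its probes were well above background on all 4 arrays, and as silent if no probe was so on any array. Of the 1755 range strands, 488 (27.8%) were measured and 338 (19.3%) silent. Among the 728 ranges with both letters, 73 had both strands measured. Another 63 had 1 measured strand with the other silent, 29 with F and 34 with R measured, and in 186 the strand opposite the measured one was detected in part. Thus, of the 322 ranges with at least 1 measured strand, 22.7% were measured on both letters and 19.6% on 1 letter against a silent one. F was measured in 33.2% of ranges in which R was, and in 20.1% of those in which R was not, so that detection on one letter went with detection on the other. The remaining ranges had 366 with scattered detection and 40 with none on either letter. These classes depend on the number of probes, and the 262 range strands of 1 probe were classed by that probe alone. The other lincRNA ranges are not given in this way, so these counts say nothing particular about these ranges.

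**Figure D2:**
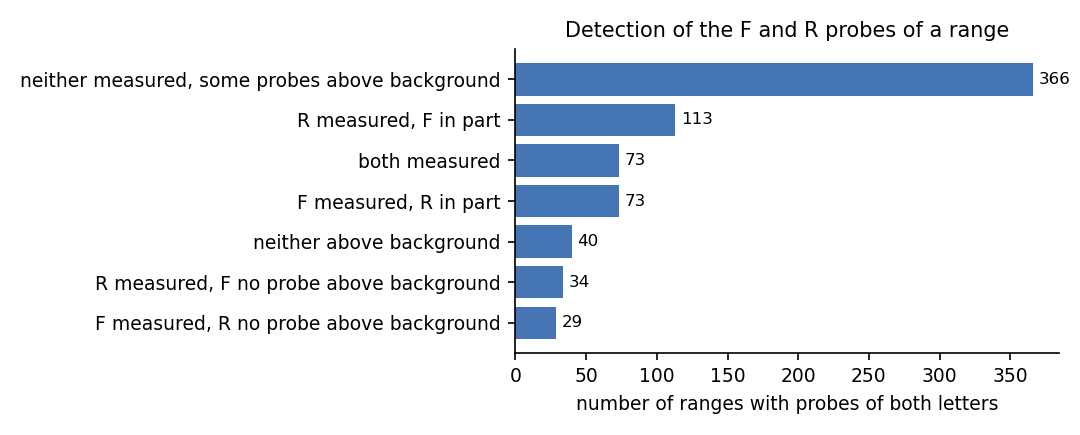
Number of ranges with probes of both letters (horizontal axis, 728 in all) by how their F and R probes were detected. "In part" marks a strand with some detected probes that was neither measured nor silent. Both strands were measured in 73 ranges, and 1 strand was measured with the other silent in 34 plus 29.

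Across the ranges as a whole the change after TAC was small at both times, and its size at 8 weeks depended on the scale. Over the 2592 probes detected on all 4 arrays the median log2 change was -0.02 at 2 weeks and -0.11 at 8 weeks. At 2 weeks 46.5% of them were higher after TAC and at 8 weeks 32.2%. With the array's median in place of its 75th percentile as the scale these shares were 38.6% and 44.9%, and the median change at 8 weeks was -0.03. The other lincRNA probes had medians of -0.03 and -0.10, and all detected probes of the array -0.01 and -0.04. The median at 8 weeks was -0.15 in probes under 25% of the 75th percentile, -0.11 up to the 75th percentile and -0.09 above it. Probes outside the lincRNA set at these same levels had -0.07, -0.03 and -0.01. The 2 letters were alike, with -0.11 for F and -0.12 for R at 8 weeks. The sham array at 8 weeks over that at 2 weeks had a median of -0.04 for the same probes.

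The scatter of single probes between the sham arrays was nearly as wide as that between TAC and sham. Its SD was 0.31 for sham at 8 weeks over sham at 2 weeks, compared with 0.33 for TAC over sham at 2 weeks and 0.39 at 8 weeks. As a gauge of the array alone, probes printed in several spots elsewhere on it had an SD of 0.14 and 0.13 for the log2 ratio of a spot at 2 and 8 weeks. It was 0.26 and 0.24 where the sham signal was under 25% of the 75th percentile.

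A probe was called up where its TAC signal was more than 2-fold that on sham and itself well above background, and down by the mirror of this rule. At 2 weeks 140 of the 7268 probes (1.93%) were up, and over all probes of the array 1.89% were. There were 74 down (1.02%), against 1.0% of all probes. At 8 weeks 121 (1.66%) were up, against 1.89%, and 140 (1.93%) were down, against 1.77%. At both times 17 (0.234%) were up and 4 (0.055%) down, against 0.374% and 0.124%. These shares lay near or under those of the whole array, so the counts say nothing particular about these ranges. The same rule between the sham arrays called 125 probes (1.72%) higher and 79 (1.09%) lower at 8 than at 2 weeks, against 1.49% and 0.853% of all probes, counts of the same order as those after TAC.

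Most calls rested on a probe that was not well above background on the other array. Well above background on both arrays of the pair were 28 of the probes up at 2 weeks (1.04% of those so measured, against 0.769% of all probes) and 11 of those down (0.408%, against 0.645%). At 8 weeks they were 38 (1.37%, against 1.42%) and 28 (1.01%, against 1.0%). At both times they were 11 up (0.424%, against 0.362%) and none of those down, against 0.13%. Between the shams they were 18 higher and 9 lower, or 0.678% and 0.339%, against 0.394% and 0.344%.

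These kinds of call differed in what the other probes of the range strand did. The other probes used were those well above background on both arrays of that time. Where a probe was up at 2 weeks and measured on both arrays, the other probes of its range strand had a median change of 0.99. This was over 24 such calls, and 21 of the 24 were in the same direction. Calls on 1 range strand share these other probes. Where the sham probe was not well above background, the median change of the other probes was 0.03 over 68 calls. At 8 weeks these medians were 1.24 over 34 calls and -0.04 over 54. At 2 weeks the other probes of those down and measured on both arrays had a median close to 0, with 4 of 8 in the same direction. At 8 weeks it was -0.18 with 18 of 23 in the same direction. Over the probes detected on all 4 arrays, which is not the same set, 32.2% were higher and the median was -0.11. Where the TAC probe was not well above background, the medians of the other probes at 2 and 8 weeks were 0.03 and -0.15.

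Calls seldom came together, here as in all lincRNA ranges. Among the 1493 range strands of at least 2 probes, 118 had a probe up at 2 weeks, 109 of them exactly 1 (92.4%, against 92.0% of all such lincRNA range strands), and 93 at 8 weeks, 81 of them exactly 1 (87.1%, against 89.1%). For probes down these were 67 of 70 (95.7%, against 96.3%) and 121 of 128 (94.5%, against 92.5%). Of the same 1493, 9 had at least 2 up at 2 weeks (0.603%, against 0.587% of all lincRNA range strands) and 12 at 8 weeks (0.804%, against 0.613%). At least 2 were down in 3 at 2 weeks (0.201%, against 0.153%) and in 6 at 8 weeks (0.402%, against 0.511%). Up at both times with at least 2 probes were 3 (0.201%, against 0.204%), on chromosomes 2, 9 and 6, and down at both times none, with 0.0% over all lincRNA range strands. After normexp background correction none of the 3 was called, and 0 range strands were up at both times.

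The first of these 3 was chr2:77146893-77155643, R, 8750 bases long. It is read here as the range that covers Lionheart, the lincRNA that was followed up afterwards, because it lies in that part of chromosome 2 and encloses another R range. The position of Lionheart is known from another build, coordinates were not converted, and the identity was not checked. Of its 5 probes, 4 were over 2-fold higher after TAC at both times. A_30_P01029665 read 9.21 on sham and 29.3 on TAC at 2 weeks, and 10.1 and 43.9 at 8 weeks. A_30_P01020923 read 10.8, 24.1, 8.99 and 40.8 on the same arrays, and A_30_P01032236 11.2, 25.4, 6.64 and 39.3. In these probes both TAC arrays lay above both sham arrays. The same was true of A_30_P01025786, at 15.7, 35.3, 16.4 and 50.04, and the last probe, A_30_P01027844, was the one that differed little, at 32.0, 35.9, 27.4 and 40.0. The median change of the 5 was 1.17 at 2 weeks and 2.12 at 8 weeks. The 3 probes of the enclosed short R range, chr2:77152807-77155092, had medians of 1.31 and 1.91, within the spread of the long range.

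The F strand of the same range was mostly at background. Of its 5 probes only A_30_P01032868 was detected on all 4 arrays, at 9.51 and 9.54 at 2 weeks and 9.30 and 15.2 at 8 weeks, a log2 change of 0.71 at the later time. Of the dim ones, A_30_P01030152 was called up and A_30_P01027027 down at 8 weeks, each with the other array of the pair at background. The rise after TAC was thus seen on R and, at 2 weeks, not on F.

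The second was chr9:14460976-14488051, F, 27075 bases long. All 5 probes were detected on all 4 arrays and both TAC signals of each lay above both of its sham signals. A_30_P01020075 read 27.9 and 60.8 at 2 weeks and 22.4 and 97.5 at 8 weeks, and A_30_P01028673 11.6, 24.7, 8.72 and 34.8. The log2 changes ran from 0.73 to 1.12 at 2 weeks (median 1.08) and from 0.86 to 2.12 at 8 weeks (median 1.81), with 3 probes over 2-fold at both times. A range of another length within it, chr9:14480441-14483362, did not share this. Its 2 detected F probes had a median of -0.03 and 0.04. The long range thus held probes with rises of up to 2.12 beside others of the same letter near 0.

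The third, chr6:40693617-40720167, F, was at background in sham. None of its 5 probes was well above background on either sham array, and 4 were so on the TAC array at 2 weeks and 3 at 8 weeks. A_30_P01018926 read 15.02 and 16.8 on the TAC arrays. Taken against the lowest signal that counted as well above background, its TAC signal was higher by 2.50-fold or more at 2 weeks, and by 3.17-fold or more at 8 weeks. For A_30_P01029478 these bounds were 1.46 and 1.74, and for A_30_P01030527 1.08 and 2.78. Both probes of an F range within it, chr6:40699474-40719122, were called up at both times in the same way. Several probes named by this stretch thus became detectable together, at signals where a single probe says little.

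**Figure D3:**
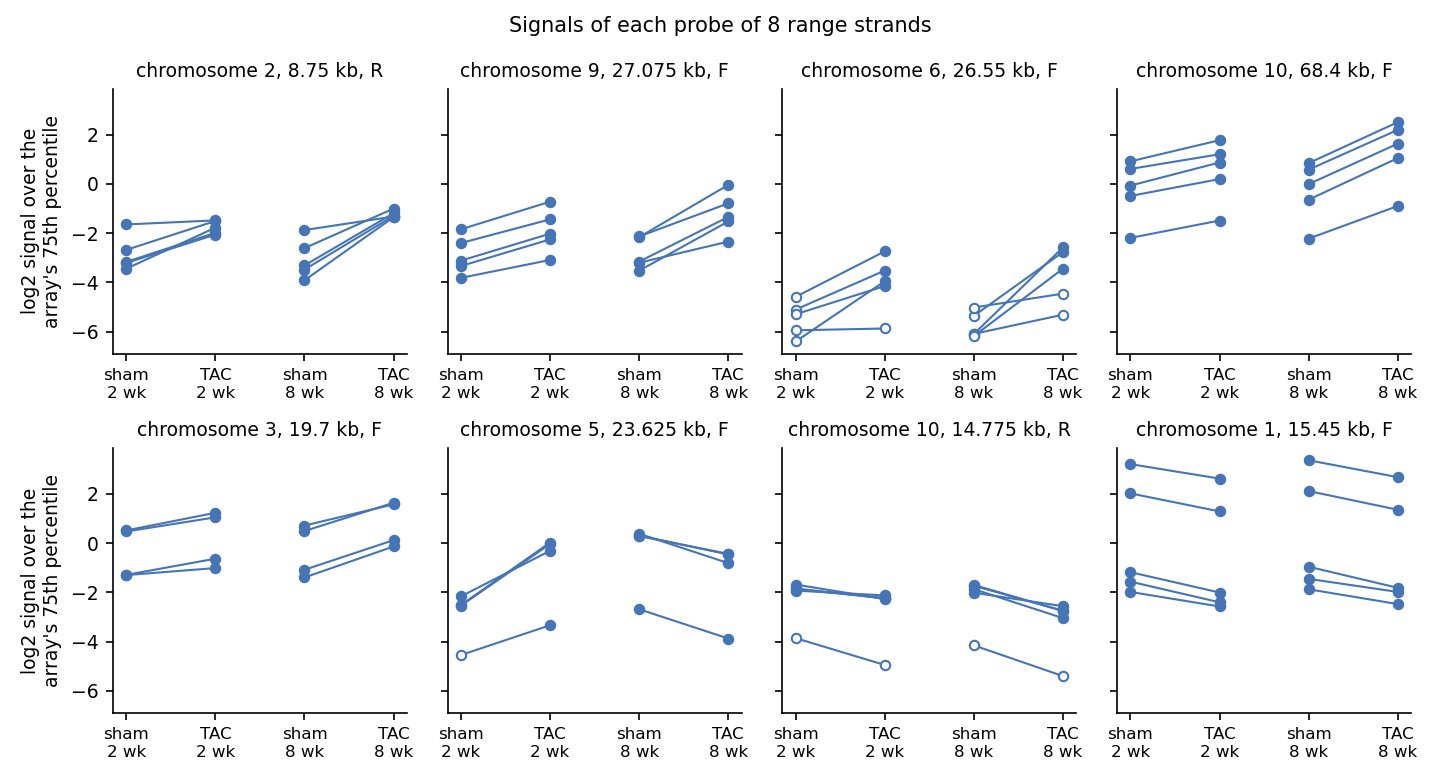
Signal of every probe with a value (1 line per probe and time) of 8 range strands on the 4 arrays, in log2 units over the array's 75th percentile. Filled points are well above background and open points are not; panels are titled by chromosome, length and letter. In the chromosome 2, 9 and 10 (F) panels all lines rise from sham to TAC at both times, in the chromosome 5 panel they rise at 2 weeks and fall at 8 weeks, and in the 2 right-hand panels of the lower row they fall.

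At 8 weeks a rise in every probe was seen on chr10:83181374-83249774, F, 68400 bases long. All 5 probes were over 2-fold higher, with log2 changes from 1.33 to 1.69 (median 1.64), and at 2 weeks from 0.60 to 0.94 (median 0.71). Its brightest probe, A_30_P01033518, read 189 and 343 at 2 weeks and 180 and 569 at 8 weeks, and its dimmest, A_30_P01017743, 21.9, 35.8, 21.5 and 53.8. A member range nested in it, chr10:83185606-83225506, F, gave 0.42 and 1.51 over 3 probes, all over 2-fold at 8 weeks. The R strand of the long range had 3 detected probes with medians of 0.22 and -0.14. A range of nearly the same extent, chr10:83181374-83249918, had 1 of 5 F probes detected on all 4 arrays, and that probe changed by -0.05 and -0.06, while 1 of its dimmer F probes was called up at 8 weeks. Detected probes of the same letter under 1 stretch of chromosome could therefore differ, and the range name does not say which transcript a probe reads.

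Further rises were shorter or smaller. chr17:32035750-32056000, R, had 2 probes, both bright. A_30_P01019807 read 215 and 464 at 2 weeks and 229 and 445 at 8 weeks, and the medians of the pair were 1.11 and 0.98. The 3 probes of a short R range inside it gave 1.03 and 1.09. chr3:146629425-146649125, F, had 4 probes with medians of 0.61 and 1.18 and a range at 8 weeks from 0.86 to 1.26. A short F range inside it gave 0.74 and 1.26, while the one detected R probe of the long range was lower after TAC at both times, at -0.38 and -0.56. chr3:40439525-40509975, F, stayed under 2-fold at both times, yet its 4 probes lay close together, from 0.45 to 0.63 at 2 weeks and from 0.69 to 0.98 at 8 weeks. On chr12:5303823-5379098, R, the 2 detected probes of 5 had medians of 1.06 and 1.19. On chr10:8606683-8665783, R, these were 0.79 and 0.66 over 4 probes, of which the lowest had 0.14 and -0.27.

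Single probes could also move alone. Among the detected probes up at both times the change was largest for A_30_P01027902, 1 of 2 R probes of chr1:85150625-85185800, which read 20.8 and 111 at 2 weeks and 21.6 and 185 at 8 weeks, or 2.41 and 3.101 on the log2 scale. The other R probe was not above background on any array. An R range of another length inside it had 2 detected probes at 0.03 and -0.06, and the detected F probe had 0.17 and -0.18. On chr12:85210777-85262127, F, A_30_P01022323 had 1.51 and 2.12 and the other detected probe 0.28 and 0.02. On chr5:110891642-110918642, F, A_30_P01030073 rose from 22.8 to 160 at 8 weeks, and the other detected probe read 30.3 and 31.0.

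**Figure D4:**
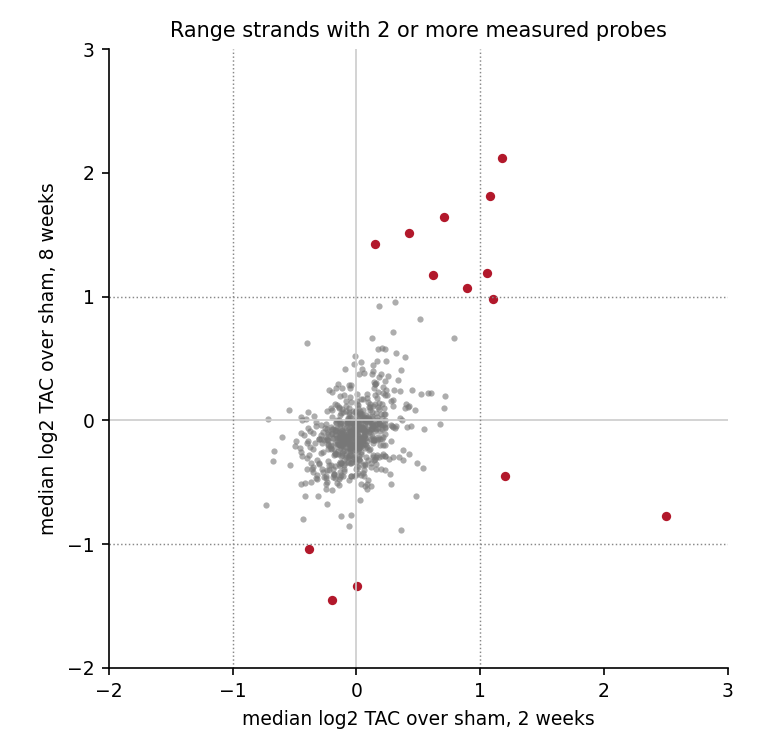
Median log2 TAC over sham at 2 weeks (horizontal axis) and 8 weeks (vertical axis) of the 636 range strands with at least 2 probes well above background on all 4 arrays. Dotted lines mark 2-fold; red points are past it at 1 or both times. At 8 weeks 8 range strands were past 2-fold up and 3 down, at 2 weeks 6 up and 0 down. The other lincRNA range strands are not shown.

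Few whole range strands were past 2-fold in either direction. Over the 636 range strands with at least 2 detected probes the median change was past 2-fold down in 0 at 2 weeks and 3 at 8 weeks, and past 2-fold up in 6 and 8. The 5th and 95th percentiles of this median were -0.37 and 0.38 at 2 weeks and -0.48 and 0.38 at 8 weeks. It was below 0 at both times in 277 and above 0 at both in 119, or in 266 and 152 with the array's median as the scale. The other lincRNA range strands are not given in this way, so these counts say nothing particular about these ranges. By probe, 44.9% and 33.9% of the detected probes of the other lincRNA ranges were higher after TAC at 2 and 8 weeks, against 46.5% and 32.2% here. The changes at the 2 times correlated across range strands with r = 0.40 (rho = 0.35), as a description of points that share arrays.

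The 4 probes down at both times were single R probes of chr13:31736054-31781679, chr14:65431652-65437902, chr17:15357376-15385701 and chr19:54011403-54018978, each not well above background on either TAC array. Against the lowest signal well above background, or their own, they were at least 1.62-fold, 3.63-fold, 2.08-fold and 2.14-fold lower at 2 weeks in that order. The first had 2 other detected probes, with medians of -0.06 and -0.85.

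The lowest median at 2 weeks was that of chr1:95871175-95886625, F, 15450 bases long. Its 5 probes were all lower after TAC, with log2 changes from -0.59 to -0.84 at 2 weeks (median -0.73) and from -0.53 to -0.86 at 8 weeks (median -0.68). A_30_P01031549 read 407 and 245 at 2 weeks and 434 and 257 at 8 weeks, and the dimmer A_30_P01029893 44.3, 24.98, 51.6 and 28.5. Both sham signals of every probe lay above both TAC signals, and the shams differed from each other by a median of 0.11. chr10:39659425-39674200, R, fell further at 8 weeks. Its 4 detected probes went from a median of -0.38 at 2 weeks to -1.04, with 3 of them over 2-fold lower, as in A_30_P01024339 from 27.4 to 12.1. An overlapping R range had 3 probes at -0.47 and -0.48, so the fall was there at both times in both ranges, and its greater depth at 8 weeks in one.

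The longest range among the named falls was chr3:126989696-127112471, R, with 122775 bases and 8 detected probes of 9. At 8 weeks all 8 were lower, from -0.23 to -0.998 (median -0.80), and at 2 weeks the median was -0.43 with 1 probe at 0.18. A_30_P01029137 read 112 and 78.3 at 2 weeks and 88.9 and 49.2 at 8 weeks. A pair of R ranges that overlap it, 3 probes each, gave -0.38 and -0.40 at 2 weeks and -0.69 and -0.84 at 8 weeks. chr14:26973425-26986650, F, had the brightest falling probe, A_30_P01021217, at 2537 and 2079 at 2 weeks and 2596.5 and 2058 at 8 weeks, and medians of -0.37 and -0.50 over 3 probes. chr15:92174226-92201201, F, had -0.45 and -0.51 over 5, all 5 of them lower at both times, while the F ranges that overlap it had 0.05 and -0.07 in one and -0.26 and -0.30 in the other. chr15:102026122-102033597, R, had -0.42 and -0.61 over 2.

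At 2 weeks alone the lowest medians after that of chromosome 1 were -0.72 for chr17:26911397-26917047, R, -0.67 for chr12:3406750-3425850, R, and -0.67 for chr18:79286360-79304510, R. At 8 weeks these were 0.02, -0.33 and -0.25. From 2 to 8 weeks the medians of their sham signals changed by -0.39, -0.09 and -0.39. The sham arrays thus differed in the chromosome 17 and 18 ranges. In the chromosome 12 range they differed little in the median, with probes from -0.53 to 0.03.

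Several of the largest falls at 8 weeks rested on 1 probe that was high on the sham array at 8 weeks alone. On chr6:4841700-4847400, F, A_30_P01032562 read 15.9 and 18.6 at 2 weeks and 142 and 19.8 at 8 weeks, while the other detected probe changed by -0.05 at 8 weeks. On chr4:59264275-59287850, R, A_30_P01021701 read 13.1, 13.9, 65.0 and 11.3 and the other detected probe changed by -0.14. On chr16:11024315-11055740, F, A_30_P01020172 read 8.01, 11.2, 47.0 and 12.6. In each, 3 of the 4 signals lay within a factor under 2 of each other and that of the sham array at 8 weeks lay apart.

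The choice of sham array mattered more for falls than for rises. Of the 22 probes down at 8 weeks and detected on all 4 arrays, 5 (22.7%) were also over 2-fold below the sham array at 2 weeks, and of the 7 down at 2 weeks, 0 were below that at 8 weeks. Of the 34 up at 8 weeks, 32 (94.1%) were also over 2-fold above the earlier sham, and of the 27 up at 2 weeks, 12 (44.4%) were above the later one. Probes of the same range strand count separately in these shares, such as the 5 of chr10:83181374-83249774, F, up at 8 weeks. Over all probes of the array these shares were 44.2% and 25.5% for falls and 80.4% and 61.5% for rises. The earlier sham hearts were also younger, and age and array cannot be told apart here.

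The sharpest case was chr5:15146475-15170100, F, which went in opposite directions. A_30_P01018533 read 17.6 and 102 at 2 weeks and 130 and 57.1 at 8 weeks. A_30_P01031842 read 17.3, 98.0, 122 and 74.0, and A_30_P01017834 22.4, 80.8, 124 and 72.9. All 3 were therefore low on 1 array, the sham at 2 weeks, and the median change was 2.51 at 2 weeks and -0.77 at 8 weeks, with the sham arrays apart by 2.82. A range on chromosome 18, chr18:3003075-3016150, R, likewise had its lowest signal on the sham array at 2 weeks in both detected probes, with medians of 1.20 and -0.45 and the sham arrays apart by 1.31.

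How well the probes of 1 range strand went together could be measured in the 636 range strands, which hold 2038 detected probes. The SD of the log2 change between probes of a range strand was 0.25 at 2 weeks and 0.30 at 8 weeks, and over all these probes it was 0.32 and 0.40. Differences within range strands thus made up 59.1% and 56.9% of the variance. Between the sham arrays they made up 77.5%. All detected probes had 1 sign in 270 range strands (42.5%) at 2 weeks and 322 (50.6%) at 8 weeks. In the other lincRNA ranges these shares were 53.7% and 57.8%. Of the detected probes, 46.5% were higher after TAC at 2 weeks and 32.2% at 8 weeks. Unrelated probes would therefore share a sign more often at 8 weeks. The gap between the highest and lowest probe of a range strand had a median of 0.32 and 0.33, and of 0.26 and 0.27 in the other ranges. The other ranges had 2295 detected probes in 818 range strands, so fewer to a range strand. The share with 1 sign and the gap both depend on this number, so they do not compare the 2 kinds of range on equal terms. The SDs within a range strand of the other ranges were 0.27 and 0.28.

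Probes of the same letter went together more than probes of opposite letters. Over 2985 pairs of detected probes of the same range and letter, the changes correlated with r = 0.41 at 2 weeks and 0.46 at 8 weeks. Over 2393 pairs of the same range and opposite letters, r was 0.16 and 0.11. The sign was the same in 61.3% and 65.2% of the first pairs and in 53.9% and 59.3% of the second. These shares were not set against pairs of unrelated probes. With 46.5% of detected probes higher at 2 weeks and 32.2% at 8 weeks, such pairs would share a sign more often at 8 weeks. Between the sham arrays r was 0.19 and 0.09. Pairs of a range share probes, and all share the 4 arrays, so these are descriptions.

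Taken by range, the F and R medians correlated weakly. In the 149 ranges with at least 2 detected probes of each letter r was 0.28 (rho = 0.34) at 2 weeks and 0.19 (rho = 0.19) at 8 weeks. The sign was the same in 89 of them (59.7%) at 2 weeks and in 101 (67.8%) at 8 weeks. Of the 636 range strands, 48.6% had a median above 0 at 2 weeks and 26.6% at 8 weeks. Unrelated medians would therefore share a sign more often at 8 weeks. The SD of F minus R was 0.27 and 0.35. Of the 10 ranges with a probe up at both times on any letter, 0 had this on both letters. Over all such lincRNA ranges it was 0 of 16, so the 0 says nothing particular about these ranges. Up at 2 weeks on both letters were 6 of the 100 ranges up on any letter (6%, against 4.46% of all such lincRNA ranges), with 47 on F alone and 47 on R alone. At 8 weeks they were 4 of 78 (5.13%, against 4%), with 42 and 32. One range with both letters higher was chr1:183783306-183834531, which had medians of 0.18 on F and 0.31 on R at 2 weeks and 0.92 and 0.96 at 8 weeks, over 3 detected probes each.

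**Figure D5:**
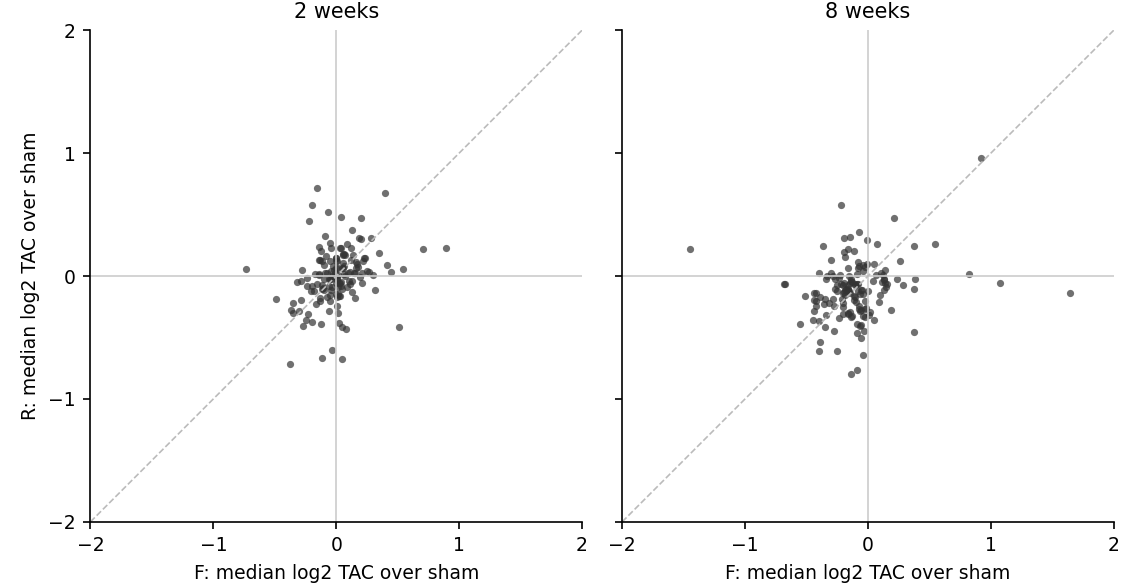
Median log2 TAC over sham of the F probes (horizontal axis) and R probes (vertical axis) of the 149 ranges with at least 2 probes of each letter detected on all 4 arrays, with 2 weeks on the left and 8 weeks on the right. The dashed line marks equal change. Points lie in a cloud around 0 with r = 0.28 and 0.19, and those far from 0 on one axis are mostly near 0 on the other.

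Lastly, 141 of the range strands could be set beside overlapping lincRNA ranges of another length with the same letter. Where several ranges overlapped, their probes were pooled, and at least 2 detected probes were required on each side. Some overlapping ranges served for more than 1 range strand, so the 141 comparisons are not all separate. Their medians correlated with r = 0.59 (rho = 0.51) at 2 weeks and 0.71 (rho = 0.49) at 8 weeks, both higher than for the 2 letters of 1 range. The other measures differed less. The sign was the same in 87 of the 141 at 2 weeks and in 99 at 8 weeks, and for the letters in 89 and 101 of 149. Here too, signs agree more readily at 8 weeks, when most medians were below 0. The SD of the difference between the medians was 0.26 and 0.28, against 0.27 and 0.35 for the letters. The rises on chromosomes 2 and 17 and on chr3:146629425-146649125, and the chromosome 3 fall, were seen in both kinds of range. The chromosome 9 rise was not seen in the 2 detected probes of the range within it. The rise of chr10:83181374-83249774, F, was not seen in the 1 detected F probe of the range of nearly the same extent.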

How the data were processed

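Total RNA of sham and TAC hearts was pooled from several mice per condition by the authors and hybridized to 4 single-colour Agilent SurePrint G3 arrays, 1 per condition. Agilent Feature Extraction is given as version 9.1 in the submitters' processing notes and as 10.7.3.1 in the file headers. The authors deposited 1 intensity for every spot, which their software had corrected for background. In these intensities the arrays were not scaled to each other. Their series-level table was found to hold these intensities multiplied by 1 constant for each array (3.52 to 4.35), so that table is rescaled array by array. The authors' further normalization is not given in the sources used here.

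From these files, outlier spots were dropped and each intensity was divided by its array's 75th percentile, computed over the non-control probes, before log2 was taken. Of the 7268 probes, 5 thereby lack a value on at least 1 array. No spot was saturated. Dim probes have only a bound: the brighter signal was divided by the dim one or, if larger, by the least intensity that the software marked as well above background on the dim array.

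With 1 array per condition no test was possible, and slide and scan could not be separated. The number of arrays limits the precision. The ranges and lists were chosen with earlier results of these data known. Ranges named in the text are the 10 range strands with the largest rise and the 10 with the largest fall over both times, the 5 of each at each time, all with at least 2 probes called at both times, the 5 ranges whose letters differ most, the Lionheart range and probes with opposite changes. chr1:183783306-183834531 was named after its values were seen. Not every range the rule selects is given. Gene probes were named through RefSeq accessions (26582 matched).

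Alternatives were quantile normalization, the median as scale, normexp (offset 50, limma 3.58.1, R 4.3.3), the deposited table, detection on both arrays, outlier spots kept, stricter membership and thresholds of 1.5-fold and 3-fold. Membership restricted to ranges with both letters was added after the data were seen. The counting was tested on simulated data. Scripts ran in Python 3.11.15 (numpy 2.4.6, pandas 2.3.3, scipy 1.17.1).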

Additional observations from a re-analysis of the deposited data

Results flagged for a closer look

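Probe A_30_P01018533 of chr5:15146475-15170100, F, went in opposite directions at the 2 times, with a log2 change of 2.54 at 2 weeks and -1.19 at 8 weeks. With 1 array per condition the difference was not tested. From 2 to 8 weeks its sham signal itself was higher by 2.89 (log2), more than either change after TAC.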

How the results depend on the processing

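No paired analysis was possible because each condition is 1 array. Quantile normalization, the median as scale, kept outlier spots and ranges with both letters left every count within 1.5 times of its value. Every median and SD moved by less than the spot-to-spot SD. The deposited table gave the same but is no separate check. Its 1 constant for each array cancels when signals are divided by the array's 75th percentile. The median of all probes moved by under 0.1 with every scaling, and at 8 weeks it was -0.04, or 0.05 with the median as scale. With the median as scale the range strands up at both times also included chr17:32035750-32056000, R.

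Normexp background correction, which shrinks dim signals, left 11 probes up and 10 down at 2 weeks, 21 up and 19 down at 8 weeks, 1 up and 0 down at both times and 0 range strands up at both times, and the SD within a range strand at 8 weeks was 0.16. Detection on both arrays of the pair left 28 up and 11 down at 2 weeks, 38 up and 28 down at 8 weeks, and 11 up and 0 down at both times. Ranges with start and end multiples of 25, which are fewer, gave 40 up and 26 down at 2 weeks, 28 up and 40 down at 8 weeks, 2 up and 0 down at both times, 0 range strands up at both times and 26 ranges measured on 1 strand only. At 1.5-fold these were 303 up and 172 down at 2 weeks, 224 up and 365 down at 8 weeks, 52 up and 31 down at both times, with 10 range strands up and 3 down at both times. At 3-fold they were 63 up and 49 down at 2 weeks and 69 up and 80 down at 8 weeks. At both times 4 were up and 2 down, with 1 range strand up at both times. The ranges with start and end multiples of 25 hold 2151 probes. At 2 weeks 1.86% of these were up and 1.21% down, against 1.89% and 1.0% of all probes. At 8 weeks 1.3% were up and 1.86% down, against 1.89% and 1.77%. For normexp, 1.5-fold and 3-fold no such shares are given. Those counts only show how the calls moved with the setting. No named range changed sign where it was past 2-fold. Of 74 median changes of named ranges, 55 moved by more than the spot-to-spot SD under normexp and 1 under quantile normalization.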
